A study of Mus musculus with 12 samples.

Results

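The inflammasome and pyroptosis genes examined here are 9 genes, the sensors Nlrp3, Nlrc4, Nlrp1b, and Aim2, the adaptor Pycard (ASC), the inflammatory caspases Casp1 and Casp4, the pore former Gsdmd, and the cytokine Il18. The rule takes them by name and uses no measured value, although the genes were picked with earlier results of these data known, and all 9 were found among the 35303 gene symbols of the count table and among the 17676 that were tested. Bulk RNA-seq of poly(A)-enriched RNA covered 12 libraries, 4 biological replicates in each of 3 groups. The groups were unmodified myeloid-derived suppressor cells (MDSC), MDSCs carrying blank poly(lactide-co-glycolide) nanoparticles (MDSC-NP-Blk), and MDSCs carrying rapamycin-loaded nanoparticles (CITED). Rapamycin is an inhibitor of the kinase mTOR. All cells were wild type and came from the bone marrow of female C57BL/6 mice aged 6 to 10 weeks, grown with IL-6 and GM-CSF and harvested on day 3. RNA was extracted from all 3 groups after a further 24 hours in medium with IL-6 (40 ng/ml). Particles were attached by click chemistry to azido sugars on the cell surface. MDSC-NP-Blk therefore differs from MDSC in the particle and its attachment, and CITED differs from MDSC-NP-Blk in the drug load. The cells are a mixture of granulocytic and monocytic MDSCs made in culture, and the libraries do not separate these.

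Inflammasomes are protein platforms that form in the cytosol when a sensor meets a sign of infection or damage. NLRP3 responds to potassium efflux and many other disturbances, AIM2 binds double-stranded DNA, NLRC4 acts with NAIP proteins that bind bacterial flagellin or secretion system parts, and NLRP1B responds to its own cleavage, for example by anthrax lethal factor. Sensors recruit caspase-1, in most cases through ASC, and mouse caspase-4 (long called caspase-11) binds bacterial lipopolysaccharide directly. Both caspases cleave gasdermin D, whose freed end makes pores in the plasma membrane, and caspase-1 also matures IL-1beta and IL-18. In myeloid cells the amounts of NLRP3 and pro-IL-1beta are raised by a priming signal before any platform is built. Cleavage and assembly occur in protein, and RNA counts do not measure them.

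Promoter sequences are shown for Nlrp3 and Pycard, which were higher with either particle, for Casp4, which was higher to about the same degree with either particle, and for Nlrp1b, which was lower with either particle. Each is the 250 bases before the RefSeq transcription start, 5' to 3' on the strand of the gene, with capitals marking matches to the motifs named below. Promoters from RefSeq (build GRCm38.p6) matched 8 of the 9 symbols (not Gsdmd), and each was placed in GRCm39 by its single exact match. In GRCm39 the windows are chr11:59433262-59433511 (+ strand), chr7:127593040-127593289 (- strand), chr9:5308599-5308848 (+ strand), and chr11:71092283-71092532 (- strand).
Nlrp3: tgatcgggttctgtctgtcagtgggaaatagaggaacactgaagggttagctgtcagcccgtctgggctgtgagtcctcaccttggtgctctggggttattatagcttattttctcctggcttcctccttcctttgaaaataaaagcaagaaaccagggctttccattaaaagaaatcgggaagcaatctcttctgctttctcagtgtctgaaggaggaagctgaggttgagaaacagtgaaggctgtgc
Pycard: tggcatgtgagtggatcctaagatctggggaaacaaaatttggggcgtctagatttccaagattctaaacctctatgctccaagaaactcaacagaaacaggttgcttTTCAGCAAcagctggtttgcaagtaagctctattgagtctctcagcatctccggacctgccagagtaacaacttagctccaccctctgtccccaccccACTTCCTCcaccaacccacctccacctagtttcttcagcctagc
Casp4: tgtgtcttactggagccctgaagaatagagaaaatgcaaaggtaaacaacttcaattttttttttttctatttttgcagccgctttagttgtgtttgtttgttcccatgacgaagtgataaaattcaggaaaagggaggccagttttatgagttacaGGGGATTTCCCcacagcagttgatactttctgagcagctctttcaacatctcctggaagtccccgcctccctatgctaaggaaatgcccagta
Nlrp1b: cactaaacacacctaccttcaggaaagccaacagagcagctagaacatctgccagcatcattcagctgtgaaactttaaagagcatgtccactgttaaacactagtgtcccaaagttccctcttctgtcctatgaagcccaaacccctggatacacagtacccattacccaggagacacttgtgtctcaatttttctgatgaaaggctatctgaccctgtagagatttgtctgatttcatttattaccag
The 7 motifs searched on both strands were an interferon-response-like element (GAAANNGAA), a STAT element (TTCNNNGAA), AP-1 (TGACTCA), PU.1 (GAGGAAGT), C/EBP (TTGCNNAA), an E-box (CACGTG), and the NF-kB consensus, searched by its usual 10-base degenerate form. The Casp4 window holds 2 overlapping NF-kB matches between bases -93 and -83 from the start, and 3.92% of all 32536 distinct promoter windows of this length hold at least 1. The Pycard window holds a PU.1 match (capitals nearest the start, found in 2.45% of windows) and a C/EBP match (found in 9.57%). No match lies in the Nlrp3 or Nlrp1b windows. Of the windows not shown, that of Nlrc4 holds a C/EBP match, that of Aim2 a PU.1 match, that of Casp1 an E-box (6.04% of windows), and that of Il18 none. The interferon-response-like, STAT, and AP-1 letters, which occur in 7.15%, 7.04%, and 4.45% of windows, are in none of the 8. The RefSeq starts used for Aim2 and Il18 lie 34750 and 10674 bases from the start of the GENCODE canonical transcript.

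In GRCm39, Casp1 (chromosome 9, 5298508 to 5307290) and Casp4 (chromosome 9, 5308828 to 5336783) are direct neighbors on the + strand, and Il18 lies further along the same chromosome (50466081 to 50493633). Nlrp3 (59432394 to 59457782, + strand) and Nlrp1b (71043928 to 71121559, - strand) are both on chromosome 11. Aim2 is on chromosome 1 (173178445 to 173293930), Pycard on chromosome 7 (127588558 to 127593039), Gsdmd on chromosome 15 (75733974 to 75739257), and Nlrc4 on chromosome 17 (74732433 to 74766165). Counts were transcript estimates summed per gene, and how reads from sequence shared between genes were divided was left to the quantifier. The share of 31-base words of the canonical transcript that also occur in transcripts of other genes was 10.2% for Aim2, 5.71% for Nlrp1b (mostly with its paralog Nlrp1a), and 3.64% for Nlrc4, so these carry some uncertainty, whereas it was 0 for Nlrp3, Casp1, Casp4, Gsdmd, and Il18. Whether the libraries keep strand is not given in the sources used here, and the canonical exons of Nlrc4 overlap those of the opposite-strand gene Slc30a6 over 867 bases. Opposite-strand genes also overlap the canonical exons of Pycard (Gm45205, 485 bases), Casp1 (Gm67740, 110 bases), and Gsdmd (Gm62577, 79 bases).

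Library totals ran from 20604809 to 37855478 counts. Values below are normalized counts, that is counts divided by library size and TMM factor (0.921 to 1.15) and set to the scale of a mean library. The cultured cells carried MDSC markers, with 51830 ± 1466 normalized counts of Itgam (CD11b) and 3924 ± 103.7 of Ly6g in MDSC (SD, n = 4). Of the 6 MDSC markers listed, 3 rose and 3 fell in CITED against MDSC. The log2 fold changes were 0.43 for Itgam, 0.217 for Ly6g, and 0.366 for Arg1, and -3.12 for Nos2, -1.04 for Ly6c1, and -0.345 for Ly6c2. A tissue field of the labels names the CNS, and of 5 CNS markers 4 (Gfap, Aqp4, Snap25, and Rbfox3) were at 0 in all libraries. Summed granulocytic markers (13 genes, all detected) ranged from 914800 to 1016000 in MDSC, 1272000 to 1332000 in the MDSC-NP-Blk libraries, and 953700 to 1073000 in CITED, and summed monocytic markers (9 genes, all detected) from 75420 to 80870, 102200 to 110900, and 86960 to 94650. Mast cell and basophil markers (5 genes, all detected) summed to 10130 to 11000, 11490 to 12680, and 5994 to 6620, and 4 B cell markers to 222.3 to 320.8, 135.3 to 222.8, and 68.79 to 91.47. Within the granulocytic list genes moved apart in CITED against MDSC (6 rose and 5 fell). Log2 fold changes were -4.41 for Mpo, -3.27 for Elane, and -1.21 for Camp, and 1.54 for Csf3r, 1.61 for Retnlg, and 1.47 for Mmp8. Mpo and Elane mark immature granulocytes, and Csf3r and Retnlg mark later stages. S100a8 (-0.005) and S100a9 (0.007), the most abundant of the list, did not pass the test. Within the monocytic list 3 rose and 5 fell. Csf1r (0.996), Fn1 (0.47), and Adgre1 (0.239) rose, and those that fell included F13a1 (-2.63) and Ccr2 (-1.18). Their part in the differences below was not tested. Libraries of a group were compared over the 10555 genes with a mean normalized count of at least 50. MDSC-NP-Blk replicates 1 and 4 were alike (chi-square per degree of freedom of 6.01), as were replicates 2 and 3 (6.14). MDSC-NP-Blk libraries of different pairs gave 17.6 to 24.2, beside 4.81 to 10.3 in the other groups. Values without either pair are given where they matter. In bulk samples more cells of a type and more RNA per cell cannot be told apart.

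Against MDSC, 7 of the 9 genes rose and 2 fell in CITED (adjusted p below 0.05 in edgeR's quasi-likelihood test), and in all 9 the 4 CITED libraries lay outside the range of the 4 MDSC libraries. Of all genes tested, 22.2% rose and 22.2% fell, and in 21.2% and 21.2% all CITED libraries lay above or below all MDSC libraries, so a large part of the transcriptome differed between these groups. In MDSC-NP-Blk against the same MDSC libraries, 5 of the 9 rose and 2 fell, where 19.9% and 18.6% of all genes did. In CITED against MDSC-NP-Blk, 3 rose, where 10.5% of all genes did, and 0 fell, where 11.4% did; 5 were higher and 0 lower at an unadjusted p below 0.05, and DESeq2 called 4 higher and 0 lower. The 17676 genes tested include many at low counts, whereas all of the 9 but Nlrp1b had a mean normalized count of at least 50. Of the 10555 genes at that level, 3761 rose and 3409 fell in CITED against MDSC. In MDSC-NP-Blk against MDSC 3393 of them rose and 2982 fell, and in CITED against MDSC-NP-Blk 1788 rose and 1899 fell. The median log2 fold change of the 9 genes was 0.61, 0.45, and 0.23 in these comparisons, beside -0.05, -0.03, and 0 over all genes tested. Both comparisons with MDSC use the same control libraries and are not independent of each other.

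Most of these differences were below a doubling. At a log2 fold change of at least 1 together with the adjusted p, the thresholds the study used for its calls, Nlrp1b was called lower in both CITED and MDSC-NP-Blk against MDSC and none of the 9 was called higher. The same thresholds called 3.28% of all genes higher and 6.7% lower in CITED against MDSC, and 1.88% and 2.86% in MDSC-NP-Blk against MDSC. In CITED against MDSC-NP-Blk they called none of the 9, and 0.651% of all genes higher and 2% lower.

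**Figure D1:**
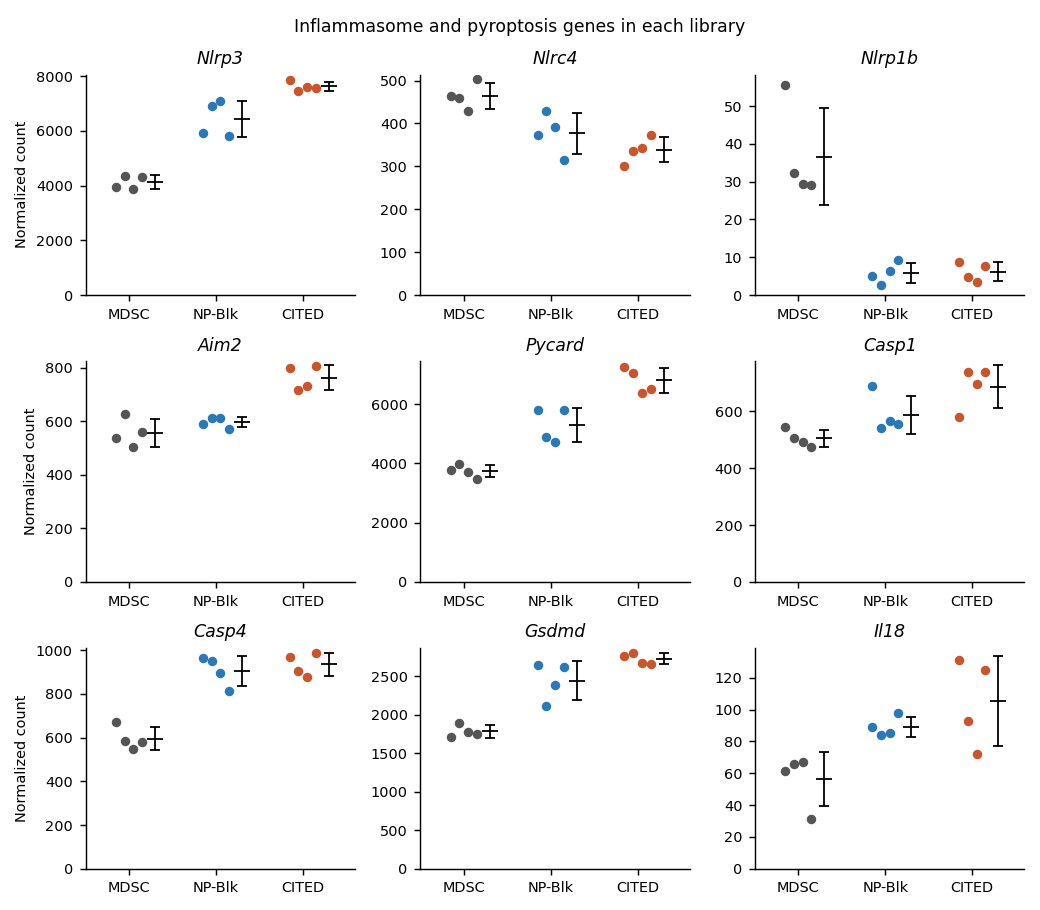
Normalized counts of the 9 genes (vertical axes, linear from 0, a scale for each gene) in the 4 libraries of each group (points), with mean and SD (bars); NP-Blk stands for MDSC-NP-Blk. Nlrp3, Pycard, Casp4, and Gsdmd of both particle groups lie above all MDSC libraries, and Nlrp1b lies below them.

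Nlrp3 was the most abundant of the sensors and rose in both particle groups. Its normalized counts were 3936, 4367, 3894, and 4321 in MDSC, 5917, 6894, 7109, and 5818 in the MDSC-NP-Blk libraries, and 7862, 7470, 7616, and 7579 in CITED. The 3 groups did not overlap, and every CITED library was above every MDSC-NP-Blk library. Against MDSC, the log2 fold change was 0.89 ± 0.06 in CITED (SE, adjusted p = 5.3e-15) and 0.64 ± 0.06 in MDSC-NP-Blk (adjusted p = 3.4e-11). CITED exceeded MDSC-NP-Blk by 0.25 ± 0.06 on the log2 scale (adjusted p = 0.0014), a 1.19-fold difference. Within MDSC-NP-Blk, replicates 1 and 4 were lower than replicates 2 and 3, and without replicates 1 and 4 CITED no longer passed the test against MDSC-NP-Blk (0.13, adjusted p = 0.079), while without replicates 2 and 3 the value was 0.38 (adjusted p = 2.7e-07).

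Nlrc4 moved the other way. Nlrc4 had normalized counts of 465, 459, 429, and 504 in MDSC, 373, 430, 392, and 314 in the MDSC-NP-Blk libraries, and 301, 337, 343, and 373 in CITED. All CITED libraries were below all MDSC libraries, whereas the highest MDSC-NP-Blk library just passed the lowest MDSC library. In CITED the log2 fold change was -0.45 ± 0.10 (adjusted p = 0.00027). That in MDSC-NP-Blk was -0.29 ± 0.10 (adjusted p = 0.016), and it did not pass without MDSC replicate 4 (-0.25, adjusted p = 0.064), without MDSC-NP-Blk replicate 4 (-0.22, adjusted p = 0.086), without MDSC-NP-Blk replicates 1 and 4 together (-0.17, adjusted p = 0.25), or after a correction for transcript length (-0.22, adjusted p = 0.069). The difference between CITED and MDSC-NP-Blk was not resolved (-0.16, 95% interval -0.36 to 0.05, adjusted p = 0.3). Since both genes come from the same library, their ratio needs no scaling between libraries, and the raw count of Nlrp3 was 8.46 to 9.51 times that of Nlrc4 in MDSC, 15.9 to 18.5 times in the MDSC-NP-Blk libraries, and 20.3 to 26.1 times in CITED.

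Nlrp1b was the rarest of the 9 and had the largest fold difference among them in both comparisons with MDSC. Its raw counts were 71, 34, 32, and 29 in MDSC, 4, 4, 6, and 8 in the MDSC-NP-Blk libraries, and 7, 4, 3, and 8 in CITED. The counts of both particle groups lay below all MDSC counts, and they sum to 22 in each against 166 in MDSC. As normalized counts the means were 36.6 ± 12.8 in MDSC, 5.85 ± 2.74 in the MDSC-NP-Blk libraries, and 6.17 ± 2.51 in CITED (SD, n = 4). The log2 fold change was -2.55 ± 0.52 in CITED (adjusted p = 9.7e-05) and -2.67 ± 0.52 in MDSC-NP-Blk (adjusted p = 7.3e-05). At these counts CITED and MDSC-NP-Blk could not be told apart, with a difference of 0.12 on the log2 scale and a 95% interval of -1.06 to 1.29 (adjusted p = 0.95).

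Aim2 was the sensor whose counts passed the test in CITED and not in MDSC-NP-Blk. For Aim2 the normalized counts were 537, 628, 504, and 562 in MDSC, 589, 611, 612, and 573 in the MDSC-NP-Blk libraries, and 798, 718, 732, and 807 in CITED. The CITED libraries were above the libraries of both other groups, which overlapped. The log2 fold change in CITED was 0.45 ± 0.08 against MDSC (adjusted p = 1.2e-05) and 0.36 ± 0.08 against MDSC-NP-Blk (adjusted p = 0.00092), and the latter is the test of the difference between the particle groups. In MDSC-NP-Blk against MDSC it was 0.10 with a 95% interval of -0.07 to 0.26 (adjusted p = 0.36), and the sign turned under total-count scaling (-0.16) and the length correction (-0.01). With total counts in place of TMM the value in CITED against MDSC was 0.18 (adjusted p = 0.059), when the median of all genes was -0.32.

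Pycard, which encodes the adaptor ASC, rose in both particle groups and further in CITED. Pycard had normalized counts of 3760, 3973, 3710, and 3485 in MDSC, 5782, 4894, 4709, and 5798 in the MDSC-NP-Blk libraries, and 7250, 7049, 6374, and 6505 in CITED. The 3 groups did not overlap. Against MDSC, the log2 fold change was 0.86 ± 0.06 in CITED (adjusted p = 4.8e-14) and 0.50 ± 0.06 in MDSC-NP-Blk (adjusted p = 2.4e-08). The difference between CITED and MDSC-NP-Blk was 0.36 ± 0.06 (adjusted p = 2.2e-05), which is 1.28-fold. Replicates 1 and 4 of MDSC-NP-Blk were higher than replicates 2 and 3, and the difference was 0.50 without the former pair and 0.23 without the latter (adjusted p = 2.7e-11 and 0.002).

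Casp1, the caspase that canonical inflammasomes activate, rose in CITED. Its normalized counts were 546, 507, 493, and 476 in MDSC, 688, 541, 566, and 556 in the MDSC-NP-Blk libraries, and 579, 737, 695, and 737 in CITED. The lowest CITED library was above all MDSC libraries but within the range of MDSC-NP-Blk. The log2 fold change in CITED against MDSC was 0.44 ± 0.09 (adjusted p = 9.1e-05), and 0.17 under total-count scaling (adjusted p = 0.13). In MDSC-NP-Blk against MDSC it was 0.21 (95% interval 0.03 to 0.40, adjusted p = 0.062), and it passed without MDSC replicate 1 (0.25, adjusted p = 0.047), without MDSC-NP-Blk replicate 2 (0.25, adjusted p = 0.038), or without CITED replicate 1 (0.21, adjusted p = 0.048), was 0.13 without MDSC-NP-Blk replicate 1, 0.02 after the length correction (adjusted p = 0.87), and -0.05 under total-count scaling. CITED against MDSC-NP-Blk gave 0.23 (95% interval 0.05 to 0.41, adjusted p = 0.064), which passed without MDSC-NP-Blk replicate 1 (0.31, adjusted p = 0.0084) and without CITED replicate 1 (0.30, adjusted p = 0.014), and was 0.15 without MDSC-NP-Blk replicates 2 and 3. These replicates held the highest Casp1 value of MDSC-NP-Blk and the lowest of CITED, and without MDSC-NP-Blk replicate 1 the number of the 9 genes that passed was 5 in place of 3.

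Casp4, the noncanonical caspase next to Casp1 on the chromosome, rose to about the same level in both particle groups. Casp4 had normalized counts of 670, 584, 549, and 579 in MDSC, 964, 950, 898, and 813 in the MDSC-NP-Blk libraries, and 971, 907, 876, and 986 in CITED. Both particle groups lay above all MDSC libraries and overlapped with each other. Against MDSC, the log2 fold change was 0.65 ± 0.08 in CITED (adjusted p = 1.4e-08) and 0.61 ± 0.08 in MDSC-NP-Blk (adjusted p = 8.9e-08). The particle groups differed by 0.04 with a 95% interval of -0.11 to 0.20 (adjusted p = 0.77), so a difference of the size seen for Pycard lies outside that interval. The raw Casp4 count was 1.11 to 1.23 times that of Casp1 in MDSC, 1.4 to 1.75 times in the MDSC-NP-Blk libraries, and 1.23 to 1.68 times in CITED.

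Gsdmd, the substrate of both caspases, rose in both particle groups. For Gsdmd the normalized counts were 1714, 1894, 1779, and 1742 in MDSC, 2649, 2108, 2385, and 2617 in the MDSC-NP-Blk libraries, and 2758, 2805, 2675, and 2655 in CITED. MDSC lay below both, and the 4 CITED libraries were above the 4 MDSC-NP-Blk libraries by a narrow margin. Against MDSC, the log2 fold change was 0.61 ± 0.06 in CITED (adjusted p = 3.1e-10) and 0.45 ± 0.06 in MDSC-NP-Blk (adjusted p = 2.9e-07). CITED against MDSC-NP-Blk gave 0.16 (95% interval 0.03 to 0.29, adjusted p = 0.062), which passed with DESeq2 (0.17, adjusted p = 0.049), without MDSC-NP-Blk replicate 1 (0.20, adjusted p = 0.015), and without MDSC-NP-Blk replicate 4 (0.20, adjusted p = 0.026), and was 0.10 without MDSC-NP-Blk replicate 2. Without MDSC-NP-Blk replicates 1 and 4 it was 0.28 (adjusted p = 0.00042), and without replicates 2 and 3 it was 0.05 (adjusted p = 0.68).

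Il18, the cytokine among the 9, was low in all groups and rose in both particle groups. Its normalized counts were 61.2, 65.5, 67.1, and 31.1 in MDSC, 89.1, 83.9, 85.3, and 98 in the MDSC-NP-Blk libraries, and 131, 92.7, 72, and 125 in CITED. All particle libraries were above all MDSC libraries, and MDSC replicate 4 stood far below the other MDSC libraries. The log2 fold change was 0.90 ± 0.23 in CITED (adjusted p = 0.0012) and 0.65 ± 0.23 in MDSC-NP-Blk (adjusted p = 0.021). The latter did not pass without MDSC replicate 4 (0.46, adjusted p = 0.11), without MDSC-NP-Blk replicate 4 (0.60, adjusted p = 0.054) or replicates 1 and 4 (0.58, adjusted p = 0.084), under total-count scaling (0.39, adjusted p = 0.17), or after the length correction (0.45, adjusted p = 0.11). CITED and MDSC-NP-Blk differed by 0.25 with a 95% interval of -0.21 to 0.70 (adjusted p = 0.49).

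**Figure D2:**
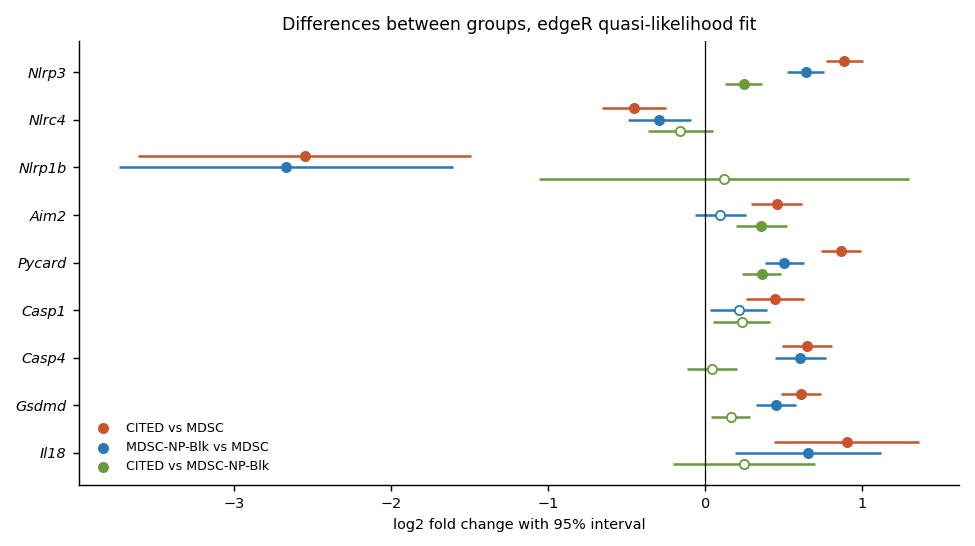
Log2 fold change (horizontal axis) of each gene in the 3 comparisons, with 95% intervals from the edgeR fit (lines); filled points passed an adjusted p of 0.05 and open points did not. In CITED against MDSC-NP-Blk the filled points are Nlrp3, Aim2, and Pycard.

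The scaling between libraries set the size of several differences against MDSC. With total counts in place of TMM, the median log2 fold change of all genes was -0.32 in CITED and -0.29 in MDSC-NP-Blk. Gsdmd was then 0.34 and 0.19, Casp4 0.38 and 0.34, and Nlrc4 -0.72 and -0.55 in these comparisons, while in MDSC-NP-Blk Nlrp3 was 0.38 and Pycard 0.24, and all of these passed the test. Relative to the median of all genes under that scaling, each kept its direction.

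Transcript length moved with the groups. Over 10542 genes, the Spearman correlation between transcript length and expression relative to the mean of all libraries was 0.22 to 0.35 in the MDSC libraries, -0.42 to 0.09 in the MDSC-NP-Blk libraries, and -0.34 to -0.19 in CITED, given as a description. Nlrc4 and Nlrp1b, which fell, have canonical transcripts of 4757 and 4131 bases, and Nlrp3 and Pycard, which rose, have 4021 and 4122. The other genes that rose in CITED have shorter ones, at 2079 for Aim2, 1975 for Gsdmd, 1531 for Casp1, 1441 for Casp4, and 1356 for Il18. Pycard also has a protein-coding transcript of 827 bases with the same start, so its length and its corrected value are uncertain. The part of length in these differences was not tested. After the length correction the log2 fold change in CITED against MDSC was 0.95 for Nlrp3 and 0.94 for Pycard, -0.33 for Nlrc4, and -2.475 for Nlrp1b. It was 0.42 for Casp4, 0.46 for Gsdmd, 0.33 for Aim2, 0.67 for Il18, and 0.23 for Casp1 (adjusted p = 0.031). All 9 genes passed the test. Without the correction Nlrp3 and Pycard gave 0.89 and 0.86, and Nlrc4 and Nlrp1b -0.45 and -2.55. Casp4, Gsdmd, Aim2, Il18, and Casp1 then gave 0.65, 0.61, 0.45, 0.90, and 0.44.

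Levels of different genes were compared per kilobase of canonical transcript. In MDSC the mean level per kilobase was 1030 for Nlrp3, 905 for Pycard, 902 for Gsdmd, 413 for Casp4, 330 for Casp1, 268 for Aim2, 97.6 for Nlrc4, 41.5 for Il18, and 8.86 for Nlrp1b. Pycard and Gsdmd were within their spread of each other in MDSC (846 to 964 and 868 to 959) and in MDSC-NP-Blk. The order was the same in MDSC-NP-Blk, whereas in CITED Il18 (53.1 to 96.9) and Nlrc4 (63.4 to 78.5) overlapped and their means changed places. Il18 and Nlrc4 also overlapped in MDSC-NP-Blk (61.9 to 72.3 and 66 to 90.4), and Casp1 and Aim2 overlapped in CITED (378 to 481 and 346 to 388). Pycard has protein-coding transcripts of very different length, and with the one of 827 bases that shares the canonical start its level would be 4510 per kilobase in MDSC, above Nlrp3, so the order of these is not settled. With the mean length of a gene's transcripts, Aim2 ranked above Casp1.

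**Figure D3:**
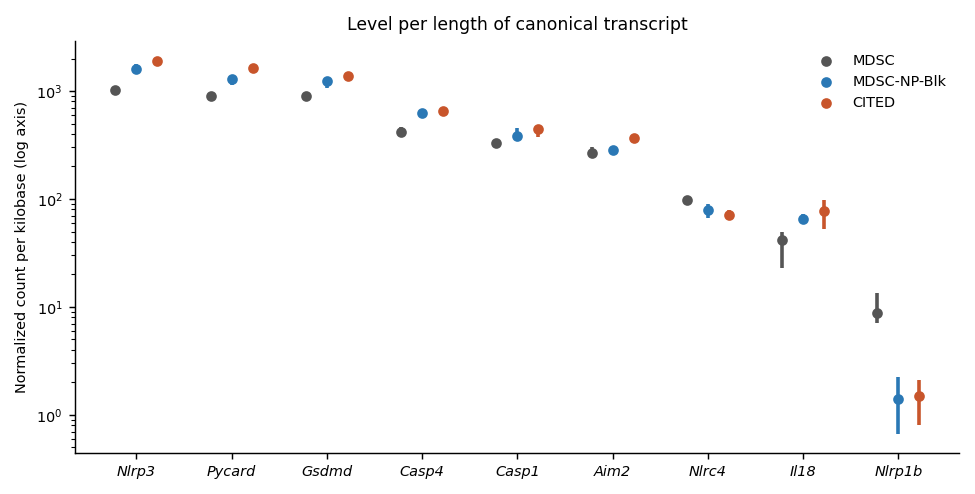
Mean normalized count per kilobase of canonical transcript (log axis) of the 9 genes in the 3 groups (points), with the range over 4 libraries (lines). Levels fall from about 1030 for Nlrp3 in MDSC to 8.86 for Nlrp1b.

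Among 10554 genes compared, those whose log2 normalized counts followed a member most closely over the 12 libraries were Il1rn (Pearson r = 0.995) and Cd300lb (0.994) for Nlrp3, Naaa (0.993) and Txn1 (0.991) for Pycard, and Lamtor4 (0.992) and Abhd17a (0.986) for Gsdmd. For Casp4 they were Il2rg and Ccl4 (0.975 each), and for Aim2 Septin9 (0.972) and Parp3 (0.965). For Nlrc4 they were Ptpn7 (0.95) and Sos1 (0.941), for Casp1 Ankrd66 (0.93) and Ppp1r12c (0.924), and for Il18 Emc3 (0.922) and Pgrmc1 (0.917). The 12 libraries form 3 groups that differ in many genes, so high values are common, and these are descriptions only.

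The other genes of the pathway were taken from 8 lists of 72 genes in all, of which 67 were tested. Of these 67, 34 rose and 18 fell in CITED against MDSC, 32 rose and 15 fell in MDSC-NP-Blk against MDSC, and 17 rose and 9 fell in CITED against MDSC-NP-Blk. The percentages of all genes that rose and fell were 22.2% and 22.2%, 19.9% and 18.6%, and 10.5% and 11.4%, and those of the 67 genes were 50.7% and 26.9%, 47.8% and 22.4%, and 25.4% and 13.4%. The falls thus lay nearer the share over all genes tested than the rises did. Among the 10555 genes with a mean normalized count of at least 50, the shares were larger. There 3761 rose and 3409 fell in CITED against MDSC, and 3393 and 2982 in MDSC-NP-Blk against MDSC. Every list count below is to be read beside these shares, and none was tested against them. The median log2 fold change of the 67 genes in CITED against MDSC was 0.23.

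The NAIP genes, whose products bring bacterial ligands to NLRC4, fell together with Nlrc4 against MDSC. Of the 6 tested genes in the list of NAIPs and other sensors, 5 fell and 1 rose in both comparisons with MDSC. Naip6 had 562, 529, 592, and 599 normalized counts in MDSC, 239, 312, 281, and 300 in the MDSC-NP-Blk libraries, and 248, 268, 391, and 362 in CITED. For Naip6 the log2 fold change was -0.84 in CITED (adjusted p = 1.2e-07) and -1 in MDSC-NP-Blk (adjusted p = 5.4e-09). Naip5 gave -0.41 and -0.68, and Naip2 -0.18 and -0.34, but after the length correction Naip2 was 0.05 in CITED against MDSC (adjusted p = 0.5). The remaining genes of the list are named after their values were seen: Naip1 gave -1.62 and -2.14 at 30.27 normalized counts in MDSC, Nlrp1a -0.55 and -0.75, and Mefv, the gene of the sensor pyrin, 0.80 and 0.55. The call of Nlrp1a in CITED (adjusted p = 0.04) did not hold without MDSC replicate 1, 3, or 4, without CITED replicate 1, 2, or 4 (adjusted p of 0.061 to 0.14), or after the length correction (-0.42, adjusted p = 0.11), and that in MDSC-NP-Blk did not hold without MDSC-NP-Blk replicates 1 and 4 (-0.53, adjusted p = 0.1). NAIP genes share sequence, with 25.4% of the 31-base words of Naip2 and 53.4% of those of Naip5 also found in other genes, so counts may have been split between them.

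Of 7 genes of AIM2-like receptors, 3 rose and 1 fell in CITED against MDSC, where 22.2% of all genes rose and 22.2% fell. Of the 10555 genes with a mean normalized count of at least 50, 3761 rose and 3409 fell in that comparison. Ifi204, a DNA-binding relative of AIM2, had 527 to 558 normalized counts in MDSC, 959 to 1302 in the MDSC-NP-Blk libraries, and 2040 to 2204 in CITED, with no overlap. Its log2 fold change was 1.96 in CITED (adjusted p = 9.2e-21) and 1.14 in MDSC-NP-Blk (adjusted p = 3.6e-14), and the particle groups differed by 0.82 (adjusted p = 9e-11). Ifi207 gave 1.34, 0.44, and 0.90 in the same order, all of which passed, but the value of MDSC-NP-Blk against MDSC was 0.18 under total-count scaling (adjusted p = 0.27) and 0.23 without MDSC-NP-Blk replicates 2 and 3 (adjusted p = 0.24). These genes also share sequence (44% of 31-base words for Ifi204 and 14.7% for Ifi207). Of 7 other NLR family genes, 3 rose and 0 fell in CITED, and 3 rose and 1 fell in MDSC-NP-Blk, where 19.9% of all genes rose and 18.6% fell.

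Among 10 genes of licensing and activation, 6 rose and 2 fell in CITED against MDSC, and 4 rose and 2 fell in MDSC-NP-Blk. The shares of all genes that rose and fell were 22.2% and 22.2% in CITED, and 19.9% and 18.6% in MDSC-NP-Blk. Txnip, whose product binds thioredoxin and NLRP3, gave 0.75 in CITED and 1.03 in the MDSC-NP-Blk libraries, and was lower in CITED than in MDSC-NP-Blk by a log2 fold change of -0.28 (adjusted p = 2.3e-05). Brcc3, the gene of a deubiquitinase of NLRP3, gave -0.73 in CITED (adjusted p = 3.8e-07) and -0.37 in MDSC-NP-Blk, the latter being -0.20 after the length correction (adjusted p = 0.11). In the list of genes that restrain inflammasomes or their caspases, 5 of 8 were tested. In each comparison with MDSC 2 rose and 3 fell, but not the same genes, since Serpinb1a and Trim30a changed sides. Dpp9, whose protease holds NLRP1 in check, gave -0.36 and -0.37. Serpinb1a, an inhibitor of neutrophil serine proteases with 12.6% of its 31-base words found elsewhere, moved in opposite directions, with -0.36 in CITED (adjusted p = 1.6e-08) and 0.39 in MDSC-NP-Blk (adjusted p = 3.8e-09), and the particle groups differed by -0.75 (adjusted p = 3.4e-15). Trim30a gave 0.52 in CITED and -0.20 in MDSC-NP-Blk (adjusted p = 0.047), each against MDSC. The latter did not pass after the length correction (-0.15, adjusted p = 0.11) or without any of several single libraries. CITED against MDSC-NP-Blk gave 0.72 for Trim30a (adjusted p = 7.8e-09).

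In the list of other gasdermins, caspases, and lytic death genes, 6 of 12 rose and 3 fell in CITED, and 5 rose and 2 fell in MDSC-NP-Blk. Gsdme, the gasdermin that caspase-3 cleaves, rose by 1.09 in CITED and 1.04 in MDSC-NP-Blk on the log2 scale. Ninj1, which ruptures the membrane of cells after pores have formed, had 2665 to 2948 normalized counts in MDSC, 4057 to 4544 in the MDSC-NP-Blk libraries, and 5964 to 6206 in CITED. Its log2 fold change was 1.12 in CITED (adjusted p = 3.2e-19) and 0.64 in the MDSC-NP-Blk libraries, and CITED exceeded MDSC-NP-Blk by 0.48 (adjusted p = 2.3e-09). Of 8 genes of ESCRT-III, the machinery that removes gasdermin pores from the membrane, 6 rose and 0 fell in both comparisons with MDSC. Beside this list and the one before it, 22.2% and 19.9% of all genes rose and 22.2% and 18.6% fell. Of the 10555 genes with a mean normalized count of at least 50, 3761 and 3393 rose and 3409 and 2982 fell.

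**Figure D4:**
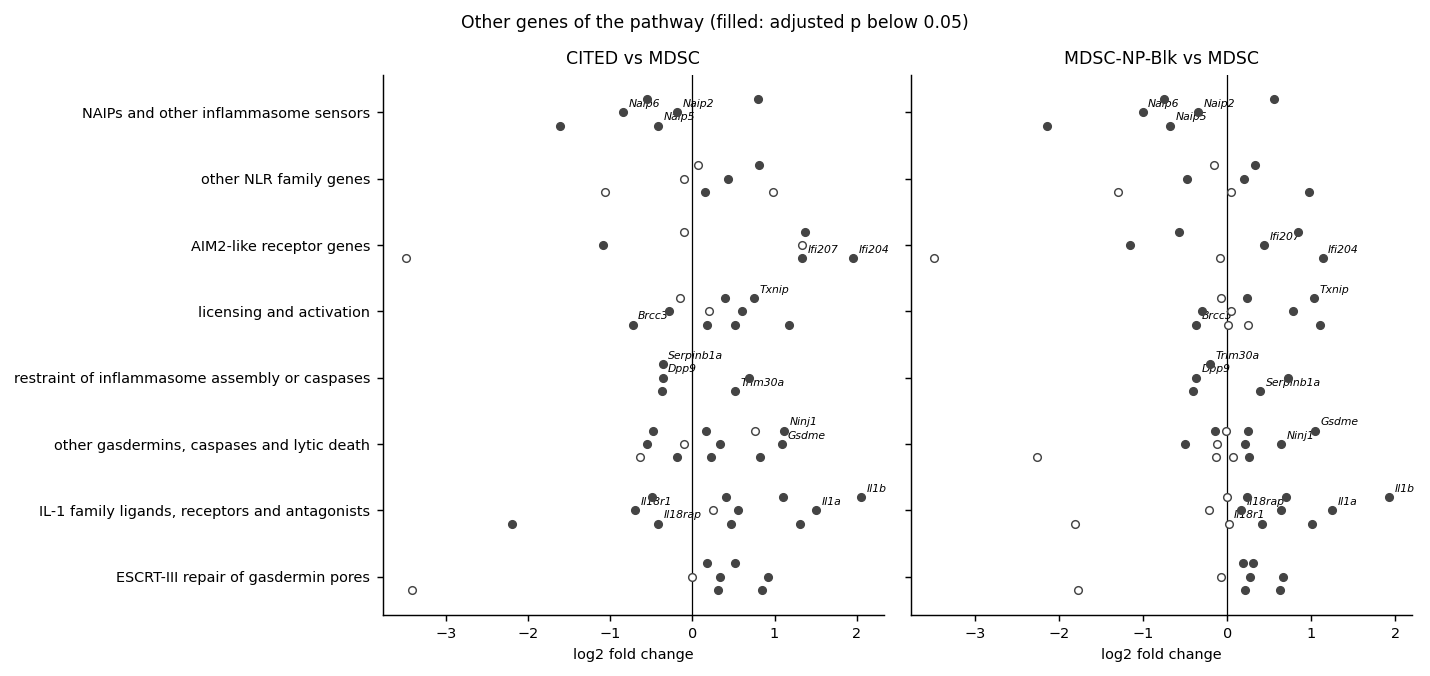
Log2 fold change (horizontal axes) of the tested genes of each pathway list (rows) for CITED and for MDSC-NP-Blk, each against the same MDSC libraries; filled points passed an adjusted p of 0.05, and points within a row are spread vertically for sight only. Il1b lies farthest to the right in both panels, at 2.05 and 1.92, and 5 of the 6 sensors in the top row lie left of 0.

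Il1b and Il1a, the cytokine genes beside Il18, rose by more against MDSC than any of the 9 genes that rose there. Il1b had 1992, 2164, 2050, and 2299 normalized counts in MDSC, 7160, 9121, 9536, and 6440 in the MDSC-NP-Blk libraries, and 9216, 8990, 8783, and 8286 in CITED. Its log2 fold change was 2.05 in CITED (adjusted p = 6.8e-21) and 1.92 in MDSC-NP-Blk (adjusted p = 1.3e-19), and CITED against MDSC-NP-Blk gave 0.13 (adjusted p = 0.27), which passed without MDSC-NP-Blk replicate 3 (0.22, adjusted p = 0.015). Without MDSC-NP-Blk replicates 1 and 4 that value was -0.08 (adjusted p = 0.31), and without replicates 2 and 3 it was 0.38 (adjusted p = 1.1e-06). Il1a rose by 1.51 and 1.24. The raw Il1b count was 30.6 to 73.9 times that of Il18 in MDSC, 65.7 to 112 times in the MDSC-NP-Blk libraries, and 66.1 to 122 times in CITED, and the ranges overlap.

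Antagonists rose as well. Il1rn, which encodes the IL-1 receptor antagonist, had 17018 to 18645 normalized counts in MDSC, 30621 to 41459 in the MDSC-NP-Blk libraries, and 42389 to 47436 in CITED, and rose by 1.31 (adjusted p = 7.8e-19) and 1.01 (adjusted p = 1.8e-15) on the log2 scale against MDSC. Il18bp, the gene of the soluble IL-18 antagonist, had means of 173.5 ± 8.154, 272.8 ± 57.12, and 373.6 ± 30.92 (SD, n = 4), with log2 fold changes of 1.10 in CITED (adjusted p = 3.7e-09) and 0.64 in MDSC-NP-Blk. The raw Il18bp count was 2.59 to 5.23 times that of Il18 in MDSC, 2.34 to 3.57 times in the MDSC-NP-Blk libraries, and 2.64 to 5.54 times in CITED, and these ranges overlap. Of all 12 genes of IL-1 family ligands, receptors, and antagonists, 7 rose and 4 fell in CITED against MDSC, and 8 rose and 0 fell in MDSC-NP-Blk.

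The receptor genes of IL-18 were lower in CITED than in the other groups. Il18r1 had 333 to 439 normalized counts in MDSC, 345 to 443 in the MDSC-NP-Blk libraries, and 233 to 277 in CITED. CITED lay below both other groups, with a log2 fold change of -0.71 against MDSC-NP-Blk (adjusted p = 4e-06). Il18rap, which encodes the accessory chain, had 2657 to 2783, 2889 to 3233, and 1972 to 2150. It gave -0.41 against MDSC (adjusted p = 8e-08) and -0.58 against MDSC-NP-Blk (adjusted p = 3.2e-10) in CITED.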

How the data were processed

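The authors quantified paired-end reads with Salmon 1.4.0 against GENCODE transcripts of GRCm39 with decoys, summed them per gene with tximport in R 4.3.2, and deposited whole-number counts per gene symbol, neither normalized nor filtered. The GENCODE release and the strand setting are not given in the sources used here. An entry with an empty symbol held 0 counts and was left out. Groups and replicate numbers came from sample titles that name biological replicates. Replicates of a group differed by more than sampling noise (chi-square per degree of freedom of 4.81 to 24.2), so none was taken as a copy of another.

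Symbols summing to 2 or more counts over all 12 libraries (17676) went into the test, run in R 4.3.3 with edgeR 4.0.16 (TMM, glmQLFit and glmQLFTest without robust estimation, group as the only term, all 12 libraries), with Benjamini-Hochberg adjustment over all genes tested. The biological coefficient of variation was 9.03%. SE was derived from the F statistic, as the size of the log2 fold change over the root of F. The smallest detectable amount was taken as 3 counts, which covers counting error only. Transcript lengths, positions, and shared 31-base words came from GENCODE vM39. The length correction removed a loess curve (span 0.5) in each library. Alternatives were DESeq2 1.42.0, other scalings and filters, fits of only the 8 libraries being compared, a replicate block, the length correction, and leaving out each library. The level per shortest transcript and the fits without 2 MDSC-NP-Blk libraries were chosen after seeing the data. The 9 genes, the lists, and the tests were chosen with earlier results of these data known.

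Named pathway genes are, in each comparison and direction, the 4 with the lowest p among those that passed with a mean normalized count of at least 50, plus Il1a, Il1b, Il1rn, and Il18bp. Genes of similar pattern are the 2 with the highest Pearson r of log2 normalized counts (prior count 2) for each member with a mean of at least 50. Figures were drawn with Python 3.11.15 and matplotlib 3.10.9.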

Additional observations from a re-analysis of the deposited data

Results flagged for a closer look

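In 27 genes (the 9 genes and the pathway genes named by rule), 81 groups of 4 libraries were examined for a library whose gap to the nearest other exceeded Dixon's 95% critical value for 4 samples, and 8 were found, where chance flags about 1 in 20 groups. Casp1 was 688.2 normalized counts in MDSC-NP-Blk replicate 1, and 541.3 to 565.6 in the other libraries of that group. Il18 was 31.12 in MDSC replicate 4 beside 61.18 to 67.06 in the others, and Nlrp1b was 55.69 in MDSC replicate 1 beside 29.11 to 32.27. Without MDSC replicate 1, Nlrp1b still fell, by a log2 fold change of -2.27 for CITED and -2.38 for MDSC-NP-Blk. Brcc3 was 358.6 in CITED replicate 2 (263.9 to 275.9 in the others), and Naip2 was 2617 in the same library (2402 to 2426). Txnip was 13010 in MDSC replicate 4 (13500 to 13540), Trim30a was 829.6 in MDSC replicate 3 (935.8 to 940.6), and Il18r1 was 276.9 in CITED replicate 4 (232.9 to 240.1).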

How the results depend on the processing

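Of 594 values of the 9 genes under alternatives, 560 kept their direction and their side of the threshold. In CITED against MDSC the 2 that did not were Aim2 (0.18) and Casp1 (0.17) under total counts without TMM. That scaling moves the median log2 fold change of all genes from -0.05 to -0.32 in CITED against MDSC and from -0.03 to -0.29 in MDSC-NP-Blk against MDSC, and the split of higher and lower calls from 3930 and 3932 to 2192 and 6323, and from 3522 and 3293 to 1662 and 6107. In MDSC-NP-Blk against MDSC it gave -0.16 for Aim2, -0.05 for Casp1, and 0.39 for Il18, and the length correction gave -0.012 for Aim2, -0.22 for Nlrc4, and 0.45 for Il18. DESeq2 gave 0.17 for Gsdmd in CITED against MDSC-NP-Blk.

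With the replicate block, Casp1 passed in MDSC-NP-Blk against MDSC (0.21, adjusted p = 0.041), and Casp1 (0.23) and Gsdmd (0.16) passed in CITED against MDSC-NP-Blk, where 5 of the 9 genes then passed in place of 3. The deviations of same-numbered libraries had correlations of -0.06 to 0.14. In CITED against MDSC-NP-Blk, replicates 1 (0.14) and 4 (0.078) matched their own number best, and replicates 2 (-0.058) and 3 (0.043) did not. In CITED against MDSC only replicate 1 (0.074) did, and in MDSC-NP-Blk against MDSC none did. Whether libraries of the same number share a donor or a preparation was not tested. A log2 fold change of at least 1 left 1, 1, and 0 of the 9 genes, 13, 10, and 0 pathway genes, and 1765, 838, and 469 of all genes, by its own construction (comparisons in the order CITED and then MDSC-NP-Blk with MDSC, and the particle groups with each other).

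With 1 library at a time removed, the value in MDSC-NP-Blk against MDSC ranged from -0.37 to -0.22 for Nlrc4, from 0.13 to 0.25 for Casp1, and from 0.46 to 0.75 for Il18. In CITED against MDSC-NP-Blk it ranged from 0.19 to 0.31 for Casp1, from -0.001 to 0.077 for Casp4, from 0.10 to 0.20 for Gsdmd, and from -0.16 to 0.44 for Nlrp1b, and 3 to 5 of the 9 genes passed. Among pathway genes, signs turned for Naip2 in CITED against MDSC (0.046, length correction), for Il18rap (-0.10) and Il18r1 (-0.24) in MDSC-NP-Blk against MDSC and Dpp9 (-0.003) in CITED against MDSC-NP-Blk under total counts, and with 1 library left out for Il18r1 (-0.06 to 0.092) and Dpp9 (-0.027 to 0.064). Without MDSC-NP-Blk replicates 1 and 4 (added after seeing the data), MDSC-NP-Blk against MDSC gave -0.17 for Nlrc4, 0.58 for Il18, and -0.03 for Il18r1, and CITED against MDSC-NP-Blk gave 0.13 for Nlrp3, 0.32 for Casp1, 0.28 for Gsdmd, -0.081 for Il1b, -0.013 for Dpp9, and -0.016 for Nlrp1a. Without replicates 2 and 3, Casp1 passed in MDSC-NP-Blk against MDSC (0.28), and Nlrp1b was -0.23 in CITED against MDSC-NP-Blk. Where no cause is named, the cause was not tested. The counts of Nlrp1b in the particle groups limit what can be told between them.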
